A study of Mus musculus with 4 samples.

Results

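Interferon-stimulated genes encode the sensors, antiviral effectors and signalling factors that cells switch on when interferon binds its receptor. A list of 56 such genes was drawn up by name, with earlier results of these libraries known, and 47 of them (83.9%) were among the 13289 genes of the count table. The other members, Oas1a, Oas2, Oas3, Zbp1, Ifi44, Gbp2, Irgm2, Trim21 and Sp100, were not analysed here. The list was split by role into ISGylation genes, the OAS family, nucleic acid sensors, IFIT and nucleotide effectors, membrane and other small effectors, GTPases, Stat and Irf factors, receptors, and a group of Trim, Parp and nuclear regulators. The tissue was mouse cerebral cortex of embryonic day 15, profiled by bulk RNA-seq in 2 control libraries (titled WT) and 2 Lhx2 cKO libraries, read here as conditional knockout of Lhx2, a LIM homeodomain transcription factor of cortical progenitors. The labels used here name no Cre driver, allele, strain, litter or sex, and nothing says that the libraries of a group came from separate embryos, so each p-value measures only the spread between these samples.

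In the textbook pathway, type I interferons bind the receptor pair Ifnar1 and Ifnar2. The kinases Jak1 and Tyk2 then phosphorylate Stat factors, Stat2 among them, which join Irf9 and bind a short promoter element, the interferon-stimulated response element (ISRE). In the brain, microglia, endothelium, neurons and progenitors can all respond, and the products degrade viral RNA, block translation and viral entry, or attach the ubiquitin-like protein Isg15 to other proteins.

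Library totals over the genes analysed ran from 22294237 to 24609627 counts. Levels are given as CPM, counts scaled to a common library size with TMM factors of 0.973 to 1.022, and 3 counts, taken as the floor of detection, amount to 0.12 to 0.132 CPM. Such floors cover counting error only. The targeted gene, Lhx2, had 316 and 287 CPM in control against 239 and 247 CPM in Lhx2 cKO. Its log2 fold change was -0.31 (SE 0.0976, edgeR adjusted p = 0.0191), and the call was lost without control 1 (-0.25, adjusted p = 0.176), without Lhx2 cKO 1 (-0.28, adjusted p = 0.102) and without Lhx2 cKO 2 (-0.34, adjusted p = 0.0538). Of 10 cortical marker genes all were present, and 5 of the 10 were lower by edgeR, beside 9.17% of all genes tested. Their summed level ran from 3770 to 3860 CPM in the control libraries and from 3330 to 3350 CPM in the Lhx2 cKO libraries.

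Promoter windows were searched for the letters of the ISRE, which some members have and others lack. The stretches below are from RefSeq promoter windows on GRCm38.p6, from 250 bases before to 50 after a start site, written 5′ to 3′ on the gene's strand. In each role group with such a gene, the member with the largest log2 fold change among those with an upstream match is shown. Capitals mark every match to the ISRE core, a pair of GAAA half-sites 2 bases apart, searched on both strands, so that a match to the other strand reads as TTTC half-sites. Neighbouring matches overlap in Isg15, Bst2 and Gbp3.
Isg15, chr4:156200850-156200921, minus strand, bases -103 to -32 from the start, 3 matches: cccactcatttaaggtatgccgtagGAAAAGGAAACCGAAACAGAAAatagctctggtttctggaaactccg
Ddx60, chr8:61928009-61928086, plus strand, bases -78 to -1, 2 matches: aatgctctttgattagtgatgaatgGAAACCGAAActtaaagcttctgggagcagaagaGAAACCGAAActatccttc
Ifit1, chr19:34640760-34640838, plus strand, bases -129 to -51, 2 matches: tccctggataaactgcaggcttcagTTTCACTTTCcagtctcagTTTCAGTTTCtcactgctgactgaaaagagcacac
Bst2, chr8:71537562-71537627, minus strand, bases -155 to -90, 2 matches: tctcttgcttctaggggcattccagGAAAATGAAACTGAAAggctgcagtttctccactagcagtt
Gbp3, chr3:142559974-142560039, plus strand, bases -70 to -5, 2 matches: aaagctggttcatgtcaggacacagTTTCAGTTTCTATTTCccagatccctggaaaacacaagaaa
Stat2, chr10:128270251-128270310, plus strand, bases -247 to -188, 1 match: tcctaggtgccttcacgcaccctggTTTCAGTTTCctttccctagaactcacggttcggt
Trim30a, chr7:104465195-104465254, minus strand, bases -61 to -2, 1 match: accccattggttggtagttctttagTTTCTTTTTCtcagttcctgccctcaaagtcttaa
The matches of Isg15, Ddx60, Gbp3 and Trim30a lie near the start, and that of Stat2 lies far upstream.

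Across the 47 members, 42 had a log2 fold change above 0 and 5 below it, with a median of 1.12 and a range from -0.07 to 4.42, against a median of 0.00339 over all genes tested. A gene is said to be called when its edgeR quasi-likelihood adjusted p over the 13288 genes tested was under 0.05. By this rule 31 of the 47 members (66.0%) were called higher in Lhx2 cKO, beside 11.6% of all genes tested, and 0 were called lower, beside 9.17% (20.8% in either direction). At an unadjusted edgeR p under 0.05, 37 members were higher and 0 lower, and the share of all genes at that cut was not computed. DESeq2 and limma-voom also called 0 members lower. The members were picked with this contrast known, so the counts describe the list and no p is given for a member. In 39 members both Lhx2 cKO libraries lay above both control libraries, beside 30.2% of all genes tested (59.3% did not overlap in either direction). By size, 26 were at least 2-fold higher, beside 2.64%, and 17 at least 4-fold higher, beside 0.354%. Of the 20 largest log2 fold changes in the whole table, 9 belonged to members.

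The filter behind the table bears on these counts. No row of the table summed to less than 102 counts over the 4 libraries, and 11 members had control counts summing to less than 51. These genes (Usp18, Oas1b, Ifih1, Ddx60, Ifit1, Ifit3, Xaf1, Mx1, Gbp3, Irf1 and Trim30a) would have fallen short of that total had their Lhx2 cKO counts been no higher than their control counts. Of them 10 were called higher, and of the other 36 members 21. Among the 11, all but Irf1 were at least 2-fold higher, and all but Irf1 and Ifih1 at least 4-fold higher. The counts by size, the count among the largest log2 fold changes and the role group medians include these genes.

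**Figure D1:**
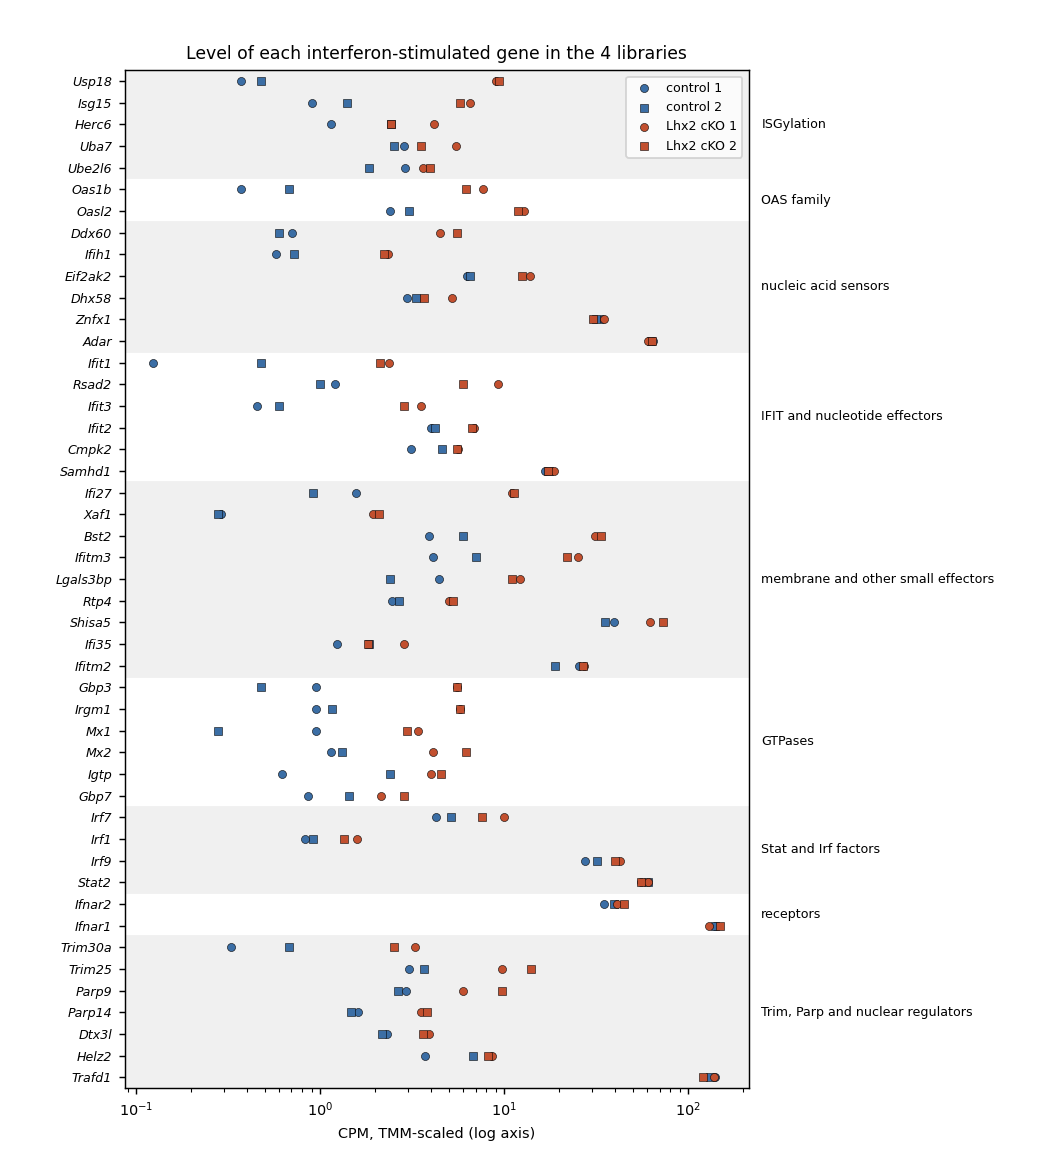
Level of each of the 47 members in the 4 libraries, in TMM-scaled CPM on a log axis, grouped by role (shaded bands) and sorted by log2 fold change within each group. Blue points are control libraries and red points Lhx2 cKO libraries; the red points lie to the right of both blue points in 39 members, and the points overlap in Ifnar1, Stat2, Adar, Znfx1, Samhd1, Trafd1, Herc6 and Ifi35.

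The ISGylation genes act as one pathway, yet their changes differed several-fold. Isg15 is the ubiquitin-like tag, Uba7 its activating enzyme, Ube2l6 its conjugating enzyme, Herc6 the mouse ligase, and Usp18 the protease that removes the tag and also damps receptor signalling. Usp18 (ENSMUSG00000030107.11) had 0.371 and 0.48 CPM in the control libraries and 9.01 and 9.45 CPM in the Lhx2 cKO libraries, from 9, 12, 205 and 217 counts. Its log2 fold change of 4.42 (SE 0.326), or 21.4-fold, was the largest of the whole table. Isg15 stood at 0.907 and 1.4 CPM in control and at 6.55 and 5.75 CPM in Lhx2 cKO, a log2 fold change of 2.41 (SE 0.313). Both genes were called, with the Lhx2 cKO libraries close to each other and far above control. The enzymes that load the tag were not called, though all 5 genes of the group were higher at an unadjusted edgeR p under 0.05. Ube2l6 had 2.89 and 1.84 CPM against 3.65 and 3.96 CPM (log2 fold change 0.69, SE 0.311). Uba7 had 2.85 and 2.52 CPM against 5.49 and 3.53 CPM (log2 fold change 0.75, SE 0.292). Herc6 had 1.15 and 2.44 CPM against 4.18 and 2.44 CPM (log2 fold change 0.87, SE 0.363). The groups of Herc6 met, since control 2 was as high as Lhx2 cKO 2, while those of Ube2l6 and Uba7 did not overlap. Herc6 gained a call without control 2 (1.51) and without Lhx2 cKO 2 (1.21), and Uba7 gained one without Lhx2 cKO 2 (1.03). Summed over the 5 genes, the level was 8.17 and 8.68 CPM in control and 28.9 and 25.1 CPM in Lhx2 cKO.

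Active enzymes of the OAS family make the messenger that activates RNase L on double-stranded RNA. Of its 5 listed members, 2 were analysed, and both were called higher. Oas1b had 0.371 and 0.68 CPM in control and 7.65 and 6.22 CPM in Lhx2 cKO, a log2 fold change of 3.70 (SE 0.352). Oasl2, an OAS-like protein, had 2.39 and 3.04 CPM in control and 12.8 and 11.9 CPM in Lhx2 cKO (log2 fold change 2.19, SE 0.213). In both genes every Lhx2 cKO library was well above every control library. GENCODE M21 types Oas1b as a polymorphic pseudogene, and the labels name no strain, so its RNA need not mean an active enzyme. Oas1b has near-identical neighbours in the Oas1 cluster, so reads could be split among them, and its value is uncertain to that extent.

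Of the 6 nucleic acid sensors analysed, 3 were called higher, and the median log2 fold change was 0.76. Ddx60, a helicase that assists RIG-I-like receptors, had 0.701 and 0.6 CPM in control and 4.48 and 5.57 CPM in Lhx2 cKO (log2 fold change 2.94, SE 0.367). Ifih1, which encodes the long double-stranded RNA sensor MDA5, had 0.577 and 0.72 CPM against 2.33 and 2.22 CPM (log2 fold change 1.80, SE 0.442). Eif2ak2, the kinase PKR that halts translation, had 6.31 and 6.56 CPM against 13.8 and 12.6 CPM (log2 fold change 1.04, SE 0.177). These genes were called, and in each of them the groups stood apart. Dhx58, the regulatory helicase LGP2, was not called, with 2.97 and 3.32 CPM in control and 5.19 and 3.66 CPM in Lhx2 cKO (log2 fold change 0.49, SE 0.28). Adar, the enzyme that edits adenosine in double-stranded RNA, had 64.9 and 62.9 CPM against 60.4 and 63.6 CPM (log2 fold change -0.04, SE 0.0988). Znfx1, an RNA helicase on mitochondria, had 34.0 and 31.8 CPM against 35.1 and 30.6 CPM (log2 fold change -0.002, SE 0.112). The libraries of Adar and Znfx1 overlapped between the groups. Adar overlaps Chrnb2 on the opposite strand, which had 213 CPM in control and a log2 fold change of 0.24. Adar and Znfx1 were also the more abundant sensors: per kilobase of gene length, Adar stood at 7.87 CPM and Znfx1 at 4.01 CPM in control, beside 0.0749 for Ddx60 and 0.0795 for Ifih1.

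Among the IFIT and nucleotide effectors, 4 of 6 were called higher and the median log2 fold change was 1.66. Ifit1, which binds RNA lacking the host cap methylation, had 0.124 and 0.48 CPM in control (3 and 12 counts) and 2.37 and 2.13 CPM in Lhx2 cKO. Its log2 fold change of 2.87 (SE 0.531) rested on these low control counts and was 2.21 without control 1 and 4.13 without control 2. Ifit3, which stabilises Ifit1 on its RNA, had 0.454 and 0.6 CPM against 3.56 and 2.87 CPM (log2 fold change 2.60, SE 0.43). Rsad2, or viperin, which makes a chain-terminating nucleotide, had 1.2 and 1.0 CPM against 9.32 and 6.01 CPM (log2 fold change 2.80, SE 0.305). In these genes both Lhx2 cKO libraries were several-fold above control. The rest of the group moved less. Ifit2 had 4.0 and 4.24 CPM against 6.9 and 6.66 CPM, a log2 fold change of 0.72 (SE 0.229), and its call was lost in DESeq2 and without any 1 of the 4 libraries (0.66 without control 1). Cmpk2, a mitochondrial nucleotide kinase, had 3.13 and 4.6 CPM against 5.63 and 5.53 CPM (log2 fold change 0.53, SE 0.253) and was not called. Samhd1, which hydrolyses deoxynucleotides, had 16.8 and 17.5 CPM against 18.7 and 17.4 CPM (log2 fold change 0.07, SE 0.139), with overlapping groups. Ifit1 and Ifit3 have close copies in the same cluster, so their counts are uncertain where reads could be shared.

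The membrane and other small effectors had the largest gain in summed CPM of any role group. Of 9 analysed, 7 were called higher, with a median log2 fold change of 1.77, and their summed level was 83.1 and 75.3 CPM in control and 179 and 187 CPM in Lhx2 cKO. Bst2, or tetherin, which holds budding virions on the cell surface, had 3.92 and 5.96 CPM against 31.2 and 33.7 CPM (log2 fold change 2.71, SE 0.162). Ifitm3, which blocks viral fusion in endosomes, had 4.12 and 7.0 CPM against 25.3 and 22.0 CPM (log2 fold change 2.08, SE 0.178). Both were called, and per kilobase they became the most abundant called members, at 35.9 CPM for Bst2 and 34.8 CPM for Ifitm3 in Lhx2 cKO, up from 5.47 and 8.2 CPM. Ifi27, a small mitochondrial and nuclear membrane protein, had 1.57 and 0.92 CPM in control and 11.1 and 11.4 CPM in Lhx2 cKO (log2 fold change 3.17, SE 0.258). Xaf1, a cofactor of cell death, had 0.289 and 0.28 CPM against 1.93 and 2.09 CPM (log2 fold change 2.80, SE 0.531). Lgals3bp, a secreted galectin-binding protein, had 4.45 and 2.4 CPM against 12.2 and 11.1 CPM (log2 fold change 1.77, SE 0.223). In all 5 genes the lower Lhx2 cKO library was more than the higher control library. Shisa5, a membrane protein of the endoplasmic reticulum, changed less from a higher base, with 39.7 and 35.3 CPM against 62.1 and 72.8 CPM (log2 fold change 0.85, SE 0.106). Rtp4, a chaperone for receptors, had a log2 fold change of 1.01 (SE 0.275), and its call was lost without control 1 (0.94) and without Lhx2 cKO 2. Ifitm2 and Ifi35 were not called. Ifitm2, close kin of Ifitm3, had 25.4 and 19.0 CPM against 27.3 and 27.0 CPM (log2 fold change 0.29, SE 0.129) and was called without control 1. Ifi35, a leucine-zipper protein, had 1.24 and 1.84 CPM against 2.86 and 1.83 CPM (log2 fold change 0.60, SE 0.386), with Lhx2 cKO 2 just below control 2.

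All 6 GTPases analysed were called higher, with a median log2 fold change of 2.22 and a range from 1.12 to 2.96. Mx1 and Mx2 are dynamin-like proteins that trap viral nucleocapsids, Gbp3 and Gbp7 coat pathogen vacuoles, and Irgm1 and Igtp (Irgm3) regulate those coats. Gbp3 had 0.949 and 0.48 CPM in control and 5.58 and 5.57 CPM in Lhx2 cKO, a log2 fold change of 2.96 (SE 0.356). Irgm1 had 0.949 and 1.16 CPM against 5.8 and 5.75 CPM (log2 fold change 2.45, SE 0.319). Mx2 had 1.15 and 1.32 CPM against 4.13 and 6.18 CPM (log2 fold change 2.05, SE 0.327). Control and Lhx2 cKO libraries did not overlap in these genes, and the Lhx2 cKO pair of Gbp3 and of Irgm1 was nearly equal. Mx1 had 0.949 and 0.28 CPM in control, more than 2-fold apart, and 3.43 and 2.96 CPM in Lhx2 cKO. Its log2 fold change of 2.38 (SE 0.443) was 3.48 without control 1 and 1.75 without control 2. Igtp likewise had 0.619 and 2.4 CPM in control against 4.0 and 4.53 CPM in Lhx2 cKO (log2 fold change 1.49, SE 0.371). It ranged from 0.82 without control 1, where the call was lost, to 2.77 without control 2. Gbp7, the least changed, had 0.866 and 1.44 CPM against 2.15 and 2.87 CPM (log2 fold change 1.12, SE 0.399), and its call was lost without control 1 (0.79), without Lhx2 cKO 2 and in DESeq2, which also lost Igtp. GENCODE M21 types Mx2, like Oas1b, as a polymorphic pseudogene, which some strains carry in broken form. The Gbp, Irgm, Trim30, Ifitm and Ifi27 genes have close copies in their clusters, so their counts are uncertain where reads could be shared. Igtp also overlaps Irgm2, which was not analysed here, on the same strand in GENCODE M21.

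**Figure D2:**
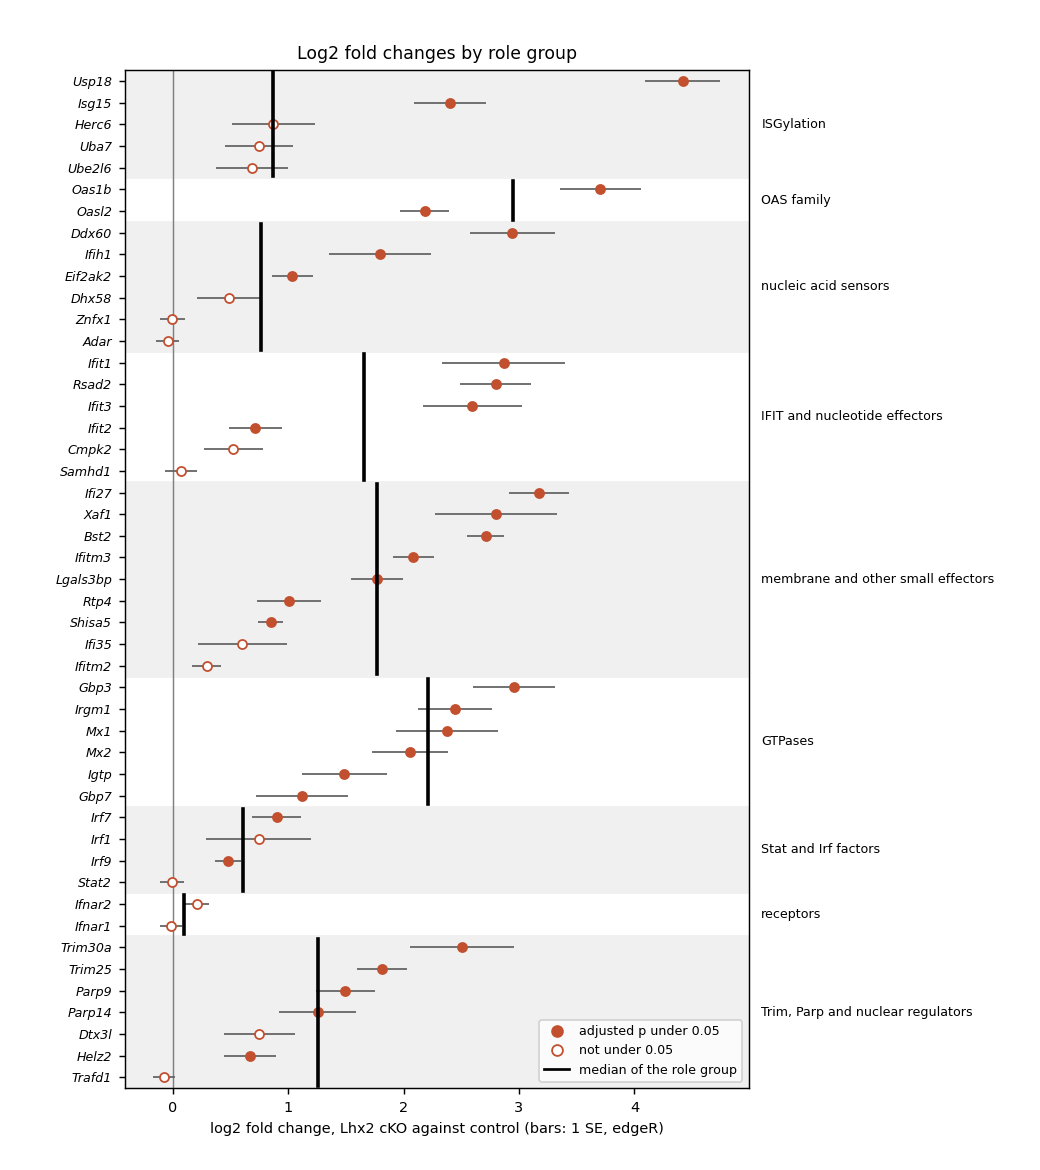
Log2 fold change of each member, Lhx2 cKO against control, with bars of 1 SE from edgeR; filled points had an adjusted p under 0.05 and open points did not, and black lines are role group medians. The medians run from 0.10 for the receptors and 0.61 for the Stat and Irf factors to 2.22 for the GTPases and 2.94 for the OAS family.

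The receptors and the Stat and Irf factors, which carry the signal, had the lowest group medians, 0.10 and 0.61. Ifnar1 had 141 CPM in both control libraries and 130 and 150 CPM in Lhx2 cKO (log2 fold change -0.01, SE 0.0958). Ifnar2 had 35.1 and 39.4 CPM against 41.2 and 44.8 CPM (log2 fold change 0.21, SE 0.107). Ifnar1 lay on both sides of control, Ifnar2 lay slightly above it without overlap, and 0 of the pair were called in either direction by edgeR, DESeq2 or limma-voom, or at an unadjusted p under 0.05. Stat2, the transactivating partner in the ISRE-binding complex, had 55.8 and 60.4 CPM against 60.5 and 55.2 CPM (log2 fold change -0.006, SE 0.101). Irf9, its DNA-binding partner, had 27.5 and 32.2 CPM against 42.9 and 40.3 CPM (log2 fold change 0.48, SE 0.11), and its call was lost without control 1 (0.36). Irf7, the factor that amplifies interferon production, had 4.29 and 5.12 CPM against 9.98 and 7.62 CPM (log2 fold change 0.90, SE 0.213), and its call was lost without Lhx2 cKO 1 (0.69). Irf9 and Irf7 were called higher with no overlap, whereas the Stat2 libraries were intermixed. Irf1, which answers mainly to interferon gamma, was not called, at 0.825 and 0.92 CPM against 1.58 and 1.35 CPM (log2 fold change 0.74, SE 0.457). Irf9 overlaps Rnf31 on the same strand and Irf7 overlaps Phrf1 on the opposite strand in GENCODE M21. Phrf1 was far more abundant in CPM than Irf7, at 133 CPM in control with a log2 fold change of -0.28. Rnf31 had 41.3 CPM in control and a log2 fold change of -0.09, and the strand of a read cannot tell it from Irf9. Since the strand setting of the counting is not given in the sources used here, reads of opposite-strand partners cannot be told apart either.

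The Trim, Parp and nuclear regulators were mixed, with 5 of 7 called higher and a median log2 fold change of 1.26. Trim25, the ubiquitin ligase that activates RIG-I, had 3.05 and 3.68 CPM in control and 9.76 and 14.0 CPM in Lhx2 cKO (log2 fold change 1.82, SE 0.215). Trim30a, a restriction factor of the mouse, had 0.33 and 0.68 CPM against 3.3 and 2.52 CPM (log2 fold change 2.51, SE 0.451), and the value was 3.12 without control 2. The ADP-ribosyltransferase genes Parp9 and Parp14 were also called, Parp9 at 2.93 and 2.64 CPM against 5.98 and 9.75 CPM (log2 fold change 1.50, SE 0.254). Parp14 had 1.61 and 1.48 CPM against 3.56 and 3.83 CPM (log2 fold change 1.26, SE 0.336). In these genes the Lhx2 cKO libraries exceeded control without overlap. Dtx3l, the ubiquitin ligase that pairs with Parp9 and overlaps it on the opposite strand, was not called, at 2.31 and 2.16 CPM against 3.91 and 3.61 CPM (log2 fold change 0.75, SE 0.308). Helz2, a nuclear receptor coactivator, had 3.71 and 6.8 CPM against 8.61 and 8.14 CPM (log2 fold change 0.67, SE 0.224). Its call was lost in DESeq2 and without control 1 (0.29), Lhx2 cKO 1 or Lhx2 cKO 2. Trafd1, a feedback inhibitor of innate signalling, had 140 and 132 CPM against 138 and 121 CPM (log2 fold change -0.07, SE 0.0959), with overlapping groups.

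Several members that are neighbours in the genome had unequal log2 fold changes. In RefSeq gene order, Rsad2 (2.80) stands beside Cmpk2 (0.53), Ifit3 (2.60) beside Ifit2 (0.72), and Gbp3 (2.96) beside Gbp7 (1.12), all as log2 fold changes. Ifitm3 (2.08) and Ifitm2 (0.29) have 1 coding gene between them. The row Parp14, Dtx3l and Parp9 was closer, at 1.26, 0.75 and 1.50, as were Ifnar2 and Ifnar1, with 1 coding gene between them, at 0.21 and -0.01.

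The size of the change went with the level in control. Among the 34 members with a mean control level under 5 CPM, 26 were called higher and the median log2 fold change was 1.81, beside 14.5% and a median of 0.24 over the 2401 tested genes of that level. Among the 9 members at 20 CPM or more, 2 were called higher, Shisa5 and Irf9, with a median of -0.002, beside 10.5% and -0.03 over 7690 genes. Over the 47 genes, the Spearman correlation of control CPM per kilobase with log2 fold change was -0.665 and the Pearson correlation, with the level on a log2 scale, -0.611. The points come from the same 4 libraries, the control counts enter both axes, and the row minimum removes low genes that did not increase, so the coefficients are a description. Summed over the members, the level was 653 and 658 CPM in control and 881 and 878 CPM in Lhx2 cKO.

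Some members had control pairs farther apart than any Lhx2 cKO pair. Pooled over the whole table, the chi-square over degrees of freedom was 13.9 for control and 14.3 for Lhx2 cKO. That value is weighted to abundant genes and does not describe pairs at low counts. In 5 members, Herc6, Ifit1, Mx1, Igtp and Trim30a, the control libraries lay more than 2-fold apart, while no Lhx2 cKO pair did, the widest being Herc6 at 1.71-fold. The control counts of these 5 genes were low, from 3 (Ifit1) to 61 (Herc6), against 49 (Ifit1) to 104 (Igtp) in Lhx2 cKO. Control 2 was the higher control library in 30 of 47 members, and the share over all genes was not computed.

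**Figure D3:**
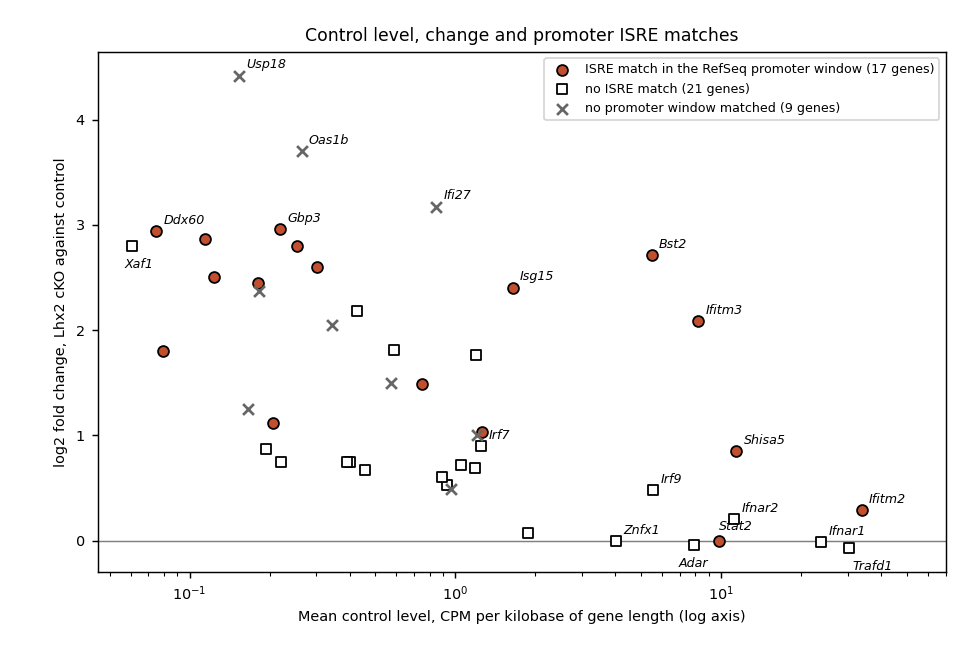
Mean control level in CPM per kilobase of gene length (log axis) against the log2 fold change for the 47 members, with filled circles for the 17 genes with an ISRE match in a RefSeq promoter window, open squares for the 21 without a match and crosses for the 9 with no window matched. Large changes lie at low control levels, and Ifnar1, Trafd1, Stat2, Adar and Znfx1 lie near 0 at the right.

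RefSeq promoter windows were matched for 38 of the 47 members. The rest, Usp18, Oas1b, Dhx58, Ifi27, Rtp4, Mx1, Mx2, Parp9 and Parp14, enter none of the counts below. All of these but Dhx58 were called higher, and Usp18 had the largest log2 fold change of the whole table. An ISRE match was present in 17 of the 38 (44.7%), beside 3.44% of 32851 promoters and 3.99% of 27025 genes. Of those 17, 15 were called higher, with a median log2 fold change of 2.41. The exceptions were Ifitm2 and Stat2, whose match is printed above. Of the 21 members without a match, 8 were called higher, with a median of 0.69. The row minimum bears unequally on these counts: 6 of the 17, all called higher, and 2 of the 21 had control counts summing to less than 51. Without these genes 9 of 11 members with a match were called higher, with a median of 1.49, and 7 of 19 without one, with a median of 0.67. A longer form, with CT after the latter GAAA, occurred in 9 members (23.7%), in 0.271% of promoters and in 0.303% of genes. All 9 members were called higher, with a median of 2.60, though 5 of the 9 had control counts under 51. Of 20 tested genes outside the list with the longer form, 1 (5.0%) was called higher, with a median of 0.03. The gamma-activated site (TTC and GAA, 3 bases apart), bound in the response to interferon gamma, was in 13 members (34.2%), 8.3% of promoters and 9.55% of genes. Of these 13 members 7 were called higher, with a median of 0.74, and of the 25 without the site 16 were, with a median of 1.77. Without genes of control counts under 51, these became 7 of 12 (median 0.78) and 9 of 18 (median 0.75). Outside the list, 339 tested genes had an ISRE match, of which 43 (12.7%) were called higher and 25 lower, with a median of 0.01, beside 11.0% called higher over all 10420 non-members with a window. A match of these letters is a description and not a binding site.

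The wider pathway was followed with genes outside the members. Of 21 interferon ligand genes, 0 were in the table, so the ligands were not analysed here. In the receptor and JAK-STAT list, 13 of 14 genes were in the table and 1 was higher by edgeR, Jak2 (7.69%, beside 11.6% of all genes tested), with a median log2 fold change of -0.02. Jak2, a kinase of the interferon gamma receptor, had 55.0 and 55.3 CPM against 74.4 and 66.5 CPM (log2 fold change 0.35, SE 0.1, edgeR adjusted p = 0.00884). Its call was lost without control 1 (adjusted p = 0.053) and without Lhx2 cKO 1 (adjusted p = 0.129). Of this list 0 were lower by edgeR, DESeq2 or limma-voom, and 1 was lower at an unadjusted p under 0.05. The most abundant genes of this list that were not called were Ifngr2 (136 to 134 CPM), Ptpn11 (97.8 to 96.7 CPM) and Pias1 (62.2 to 58.4 CPM), as means of the control and then the Lhx2 cKO libraries. With upper-quartile factors or library totals alone, Socs1 (log2 fold change 1.02, adjusted p = 0.0535 with TMM) and Ptpn6 (0.89, adjusted p = 0.0547 with TMM) were called too.

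Upstream of interferon, 19 of 23 sensing and adaptor genes were in the table, and 2 were higher (10.5%, beside 11.6% of all genes tested) and 1 lower by edgeR (9.17% of all genes tested were), with a median log2 fold change of -0.11. The shares called were thus near or below those of the whole table. Unc93b1, which carries endosomal Toll-like receptors, had 9.11 and 10.1 CPM against 11.8 and 17.5 CPM (log2 fold change 0.61, SE 0.173, edgeR adjusted p = 0.00919). The call was lost without control 1 (adjusted p = 0.071) and without Lhx2 cKO 2 (adjusted p = 0.469). Tlr3, the endosomal double-stranded RNA receptor, had 1.44 CPM in both control libraries against 3.43 and 2.7 CPM (log2 fold change 1.08, SE 0.362, edgeR adjusted p = 0.0272), and was lost in DESeq2 (adjusted p = 0.0561) and without control 1, control 2 or Lhx2 cKO 1. Aim2, a cytosolic DNA sensor, was lower, with 12.9 and 14.5 CPM against 9.19 and 8.84 CPM (log2 fold change -0.60, SE 0.165, edgeR adjusted p = 0.00651). Its call was lost without control 2 (adjusted p = 0.0743). The most abundant genes not called were Skiv2l (169 to 154 CPM), Tbk1 (50.2 to 42.2 CPM) and Irf3 (50.1 to 43.4 CPM). Without control 1, Tbk1 was lower (-0.38, edgeR adjusted p = 0.0236) and Irf5 higher (1.40, edgeR adjusted p = 0.0445).

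Of a further list of 62 interferon-stimulated genes outside the members, 27 were in the table, and 13 of these (48.1%, beside 11.6% of all genes tested) were higher and 1 lower by edgeR, with a median log2 fold change of 0.83. DESeq2 called 7 higher. Like the members, this list was chosen with earlier results of these data known, so it is no independent check and its counts are a description. Of the 27, 5 had control counts under 51, 3 of them called higher (Trim12a, Sp110 and Ifi203), and of the other 22, 10 were called higher, with a median of 0.56. Rnf213, a giant ubiquitin ligase, had 8.45 and 9.56 CPM in control and 32.7 and 33.5 CPM in Lhx2 cKO (log2 fold change 1.88, SE 0.137, edgeR adjusted p = 3.93e-14). Pml, which builds nuclear bodies, had 6.31 and 6.68 CPM against 13.5 and 15.1 CPM (log2 fold change 1.14, SE 0.174, edgeR adjusted p = 2.8e-06). Both genes had all Lhx2 cKO libraries above all control libraries. Parp12 (1.31, adjusted p = 0.000544), Lgals9 (1.47, adjusted p = 0.000729), Trim12a (2.08, adjusted p = 0.00105) and Slfn5 (1.50, adjusted p = 0.00111) came next by edgeR. Trim12a was lost without Lhx2 cKO 2 (adjusted p = 0.103) and Slfn5 without Lhx2 cKO 1 (adjusted p = 0.113). Serping1, the inhibitor of complement C1, was lower (-0.47, edgeR adjusted p = 0.00946), a call lost without control 2 (adjusted p = 0.0995). The abundant genes Ogfr (128 to 142 CPM), Parp11 (55.7 to 57.8 CPM) and Daxx (41.8 to 39.8 CPM) were not called.

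Target genes of NF-kB, the other main arm of innate signalling, were in the table for 8 of 15, and their median log2 fold change was 0.06, with 2 higher by edgeR (11.6% of all genes tested were) and 0 lower, also 0 at an unadjusted p under 0.05 and in DESeq2 and limma-voom. These were Vcam1 (0.56, edgeR adjusted p = 0.0019), an adhesion molecule of endothelium, and the chemokine Ccl3 (1.07, edgeR adjusted p = 0.0349). Vcam1 was lost without control 1 (adjusted p = 0.106), and Ccl3 in DESeq2 (adjusted p = 0.0794) and without control 1, Lhx2 cKO 1 or Lhx2 cKO 2. The most abundant genes of this list that were not called were Nfkbia (32.4 to 28.3 CPM), Nfkb2 (3.37 to 3.44 CPM) and Tnfaip3 (2.9 to 3.1 CPM).

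**Figure D4:**
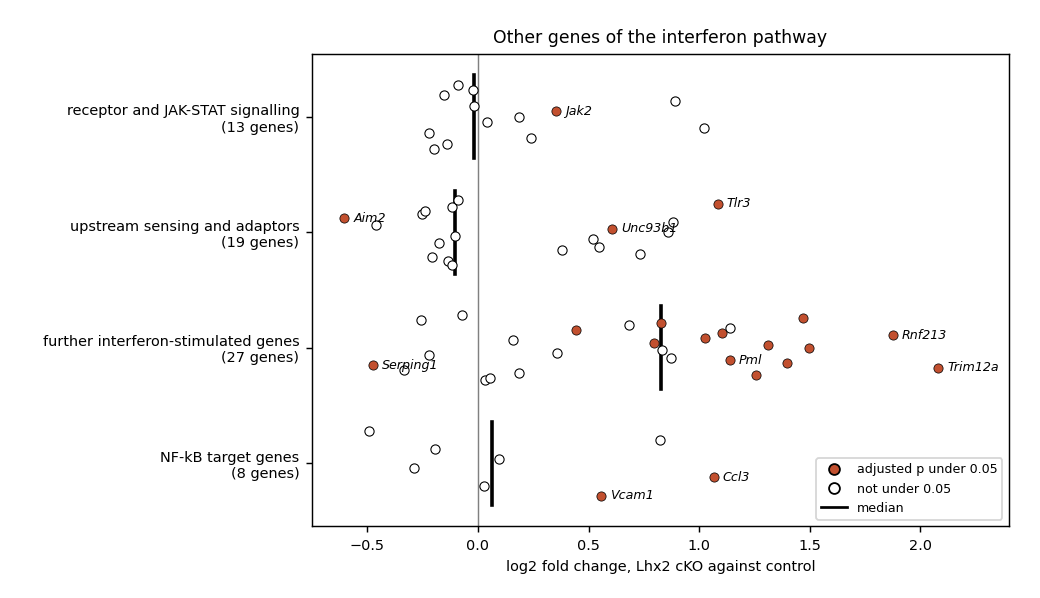
Log2 fold changes, Lhx2 cKO against control, of pathway genes outside the members, 1 point per gene, with vertical position spread only for visibility; filled points had an edgeR adjusted p under 0.05 and black lines are medians. The further interferon-stimulated genes have a median of 0.83, while the medians of the JAK-STAT, upstream sensing and NF-kB lists are -0.02, -0.11 and 0.06.

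Markers of microglia, macrophages and endothelium were mostly higher along with the members, while most pericyte, meningeal and red cell markers were not. Over all genes tested, 11.6% were higher and 9.17% lower by edgeR. In bulk samples, a change in the number of cells of a type and a change in RNA per cell cannot be told apart. Of 14 microglia and macrophage markers, 13 were in the table (Pf4 was not analysed here), and 12 were higher by edgeR and 10 by DESeq2. Among the 12, Mrc1 had 17 counts in each control library. It would have fallen short of the row minimum of 102 counts had its Lhx2 cKO counts been no higher. P2ry12 was not called (log2 fold change 0.40). The called markers ran from 0.71 for Csf1r to 2.23 for Aif1, and the median over all 13 was 1.23. Their summed level was 139 CPM in both control libraries and 286 and 310 CPM in the Lhx2 cKO libraries. Endothelial markers, all 10 in the table, were higher in 7 cases by edgeR and 6 by DESeq2, with a median of 0.49. Their sums were 196 and 240 CPM in control and 299 and 350 CPM in Lhx2 cKO. Of 11 genes listed as markers of lymphocytes and plasmacytoid dendritic cells, 1 was in the table, Siglech (log2 fold change 1.18, edgeR adjusted p = 0.000289). With no other gene of its list in the table, Siglech does not show which cell type it came from. Of 10 monocyte and neutrophil markers, 0 were in the table. No marker in the table was at 0 in a group's mean. Pericyte and meningeal markers, 8 of 10 in the table, had 1 higher and 2 lower, with sums of 215 and 224 CPM against 192 and 202 CPM. Within that list Col1a1, a collagen chain, was lower, at 25.7 and 23.0 CPM against 4.44 and 1.65 CPM (log2 fold change -3.00, SE 0.216, edgeR adjusted p = 2.57e-14), while Col1a2 (0.25) and Col3a1 (0.20) were not called. Red cell markers, 6 of 7 in the table, had 1 higher and 5 lower by edgeR, and 1 higher and 3 lower by DESeq2. Their sums were 3170 and 2340 CPM against 2130 and 1900 CPM. The part of these cell types in the members' differences was not tested. As log2 ratios of summed mean levels, microglia and macrophage markers stood at 1.11 and endothelial markers at 0.57, beside 0.42 for all members. Above the microglia and macrophage value were the OAS family (2.58), the GTPases (2.08), the ISGylation genes (1.68) and the membrane and other small effectors (1.21). Below it were the IFIT and nucleotide effectors (0.69), the Stat and Irf factors (0.23), the sensors (0.15), the Trim, Parp and nuclear regulators (0.15) and the receptors (0.04). Sums are weighted to abundant genes, and Trafd1 alone gave 136 of the 152 CPM of its group's control mean. By median log2 fold change the order differed. Above the microglia and macrophage median of 1.23 were the OAS (2.94), GTPase (2.22), membrane (1.77), IFIT (1.66) and Trim and Parp (1.26) groups. The ISGylation genes (0.87), sensors (0.76), Stat and Irf factors (0.61) and receptors (0.10) stood below it. This order depended on the setting. With a mean count of at least 50, the IFIT median was 0.628 and the Trim and Parp median 1.01. Without Lhx2 cKO 2 the Trim and Parp median was 1.098, and without control 2 the ISGylation median was 1.513. The marker median of 1.23 is from the main fit.

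**Figure D5:**
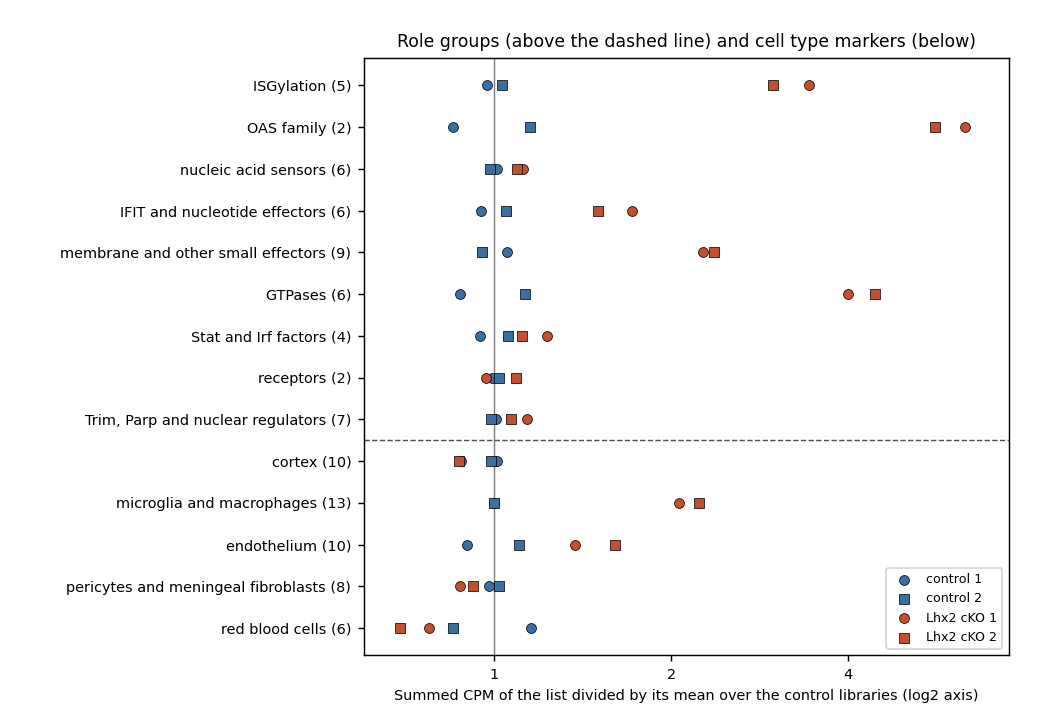
Summed CPM of each role group (above the dashed line) and each cell type marker list (below it) in the 4 libraries, divided by the mean of the control libraries, on a log2 axis; numbers in brackets are genes in the table. OAS, GTPase and ISGylation sums lie farthest to the right in the Lhx2 cKO libraries, microglia and macrophage markers lie near 2, and the receptor sums lie on both sides of 1.

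The authors' deposited table marks 30 of the 47 members as up, 0 as down and 17 as not significant. By the adjusted p in the authors' deposited table, 31 members were under 0.05, and all 31 were those called here. The log2 fold changes in the authors' deposited table differed from the values here by at most 0.00998.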

How the data were processed

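The deposited table holds raw read counts per gene, 1 column per library, and gene lengths in bases. Trim Galore, Subread, featureCounts, edgeR and the build mm39 are named without versions in the submitters' processing notes; annotation, strand setting and filters are not given in the sources used here. Per the file headers, the authors also deposited log2 fold changes and mean log2 CPM, p-values and adjusted p-values, and the -log10 of the adjusted p-value.

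Counts were tested in edgeR 4.0.16 (R 4.3.3; TMM, filterByExpr with a minimum of 10 counts, glmQLFit and glmQLFTest, Benjamini-Hochberg adjustment over 13288 genes, two-sided), checked on simulated counts. The groups came from the library titles. SE is the absolute log2 fold change over the square root of F. Leaving out a library leaves 1 sample in its group, assumed to vary like the other group. Same-numbered libraries had a correlation of deviations of -0.00515 (log2 with a pseudocount of 0.5), so the fit had no pairing. Libraries of a group were not duplicates: chi-square over degrees of freedom was 13.9 for the control pair and 14.3 for the Lhx2 cKO pair. Alternatives used limma 3.58.1 and DESeq2 1.42.0. Coordinates are printed for the promoter stretches alone. These are RefSeq's on GRCm38.p6, while the build in the processing notes is mm39.

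The members and all gene lists were chosen with earlier results of these data known. Each role group's members with the largest and smallest absolute changes are given by library. Of each other list, up to 6 called genes by smallest p and up to 3 of the most abundant not called are named; 1 gene of the JAK-STAT list is not reported here.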

Additional observations from a re-analysis of the deposited data

How the results depend on the processing

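Genes called over the whole table numbered 2758, 1697 at an adjusted p under 0.01, and 1633 to 2396 when 1 library was left out. The log2 fold change of Lhx2 ran from -0.376 to -0.25 without 1 library. With the replicate block, 2874 genes were called and all 31 called members kept their call; no library number marks a shared source. Members called higher ran from 26 to 31 without 1 library and were 27 in DESeq2. A mean count of at least 50 kept 38 members, 24 of them called, and lowered medians of log2 fold change to 0.96 for the members, 0.496 for sensors, 0.628 for IFIT and nucleotide effectors, 0.485 for Stat and Irf factors and 1.01 for Trim, Parp and nuclear regulators, having removed the lowest genes. Without 1 library, medians ran from 0.997 to 1.387 for the members, 0.745 to 1.513 for ISGylation, 2.67 to 3.287 for the OAS family, 1.435 to 1.752 for IFIT and nucleotide effectors, 1.387 to 1.827 for membrane and other small effectors, and 1.098 to 1.308 for Trim, Parp and nuclear regulators. Genes called higher in the JAK-STAT list were 3 with upper-quartile factors and with library totals alone, 2 once genes averaging under 50 counts were dropped, 2 with the replicate block and 1 to 2 without 1 library. They were 1 in the upstream sensing list in DESeq2, at an adjusted p under 0.01 and without any 1 library, though without control 1 it was another gene, Irf5. In the further interferon-stimulated list they were 7 in DESeq2, 7 at an adjusted p under 0.01 and 7 to 9 without 1 library. In the NF-kB list they were 1 in DESeq2, 1 at an adjusted p under 0.01 and 0 to 2 without 1 library. The cause was not tested. No member reversed a called direction; Znfx1, Stat2, Ifnar1 and Trafd1 changed sign near 0. Members near 3 counts in control, such as Ifit1, have the widest errors (SE up to 0.531).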
